A study of Mus musculus with 27 samples.

Results

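Livers of mice fed a diet low in n-3 fatty acids were compared with livers of mice fed the AIN-93 purified diet, the control of the study, over the 5933 genes detected in at least 1 of both groups. They were drawn from 6478 genes detected in any of the 9 diets of the series. A gene counted as detected when its mean signal in a diet exceeded 100 on the linear scale, which is 6.64 in the log2 units used throughout. For each diet the livers of 3 male C57BL/6 mice were measured, each with 1 Affymetrix Mouse 430 2.0 array of whole-liver RNA, so n = 3 livers per diet for every value below. The mice were bought at 10 weeks of age, ate their diet for 3 weeks and were not fasted before they were killed in the morning. The control arrays are titled AIN-93M Purified. For the low n-3 arrays the labels disagree. Their title and diet tag name a supplement of docosahexaenoic acid (DHA), which is an n-3 fatty acid, whereas their description names 7% sunflower oil with low n-3, and the methods of the study list the latter and no diet with added DHA. Elsewhere the study names a DHA-deficient group. The arrays were taken as low n-3 sunflower oil from the description, which both passages of the study match, and every direction below rests on it. The diet table of the study also gives the low n-3 feed more total fat, more polyunsaturated fat and more protein than the control feed, so a lack of n-3, a surplus of n-6, the amount of fat and the amount of protein cannot be told apart in this comparison.

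Mammals cannot make the first n-6 and n-3 fatty acids and obtain linoleic and alpha-linolenic acid from food. The liver lengthens and desaturates both with the same enzymes, the desaturases FADS1 and FADS2 and the elongases ELOVL2 and ELOVL5, to arachidonic acid on the n-6 side and to EPA and DHA on the n-3 side. Sunflower oil is rich in linoleic acid and holds very little n-3. Long-chain polyunsaturated fatty acids also act on transcription in the liver, where they activate the nuclear receptor PPAR alpha and restrain SREBP-1, the factor that drives fatty acid synthesis.

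The 2 diets differed little, and at the stricter adjustment no gene passed. With p-values adjusted by limma over all genes and all 8 diets set against the control together, 65 of the 5933 genes were called at 0.05, which is 1.10% of those tested. Of these 21 were higher with low n-3 (0.354%) and 44 were lower (0.742%). Over all 6478 genes of the series 69 were called (1.07%), 0.340% of genes higher and 0.726% lower. With the adjustment over this comparison alone 0 were called (0%), the smallest adjusted p being 0.178, although 595 genes (10.0%) had an unadjusted limma p under 0.05, 184 of them higher (3.10%) and 411 lower (6.93%). The calls therefore lean on the other diets, through which an unadjusted p of up to 0.00483 was admitted. Chance alone would put 31.3 of the 6478 genes below that value. Each p measures the spread between mice of a diet. In the other 7 diets the same adjustment called between 253 and 1914 genes.

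The median gene differed by -0.029 on the log2 scale, the median absolute difference was 0.128, and 95.2% of genes lay within 0.5 in either direction. The mean was higher with low n-3 in 43.8% of genes, the share against which every list below should be read. The split of the calls depended on how the arrays were scaled. When each array was centred on its median 49 of 79 called genes were higher, and after a further quantile normalisation 41 of 74 were, against 21 of 65 with the values as deposited. The median gene moved only to 0.019 and 0.004 under these scalings. In 981 genes (16.5%) the 3 low n-3 values did not overlap the 3 control values, 6.22% of genes lying wholly above and 10.3% wholly below. The called genes were separated in 63 of 65 cases, the exceptions being Rassf6 and Zfp931.

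**Figure D1:**
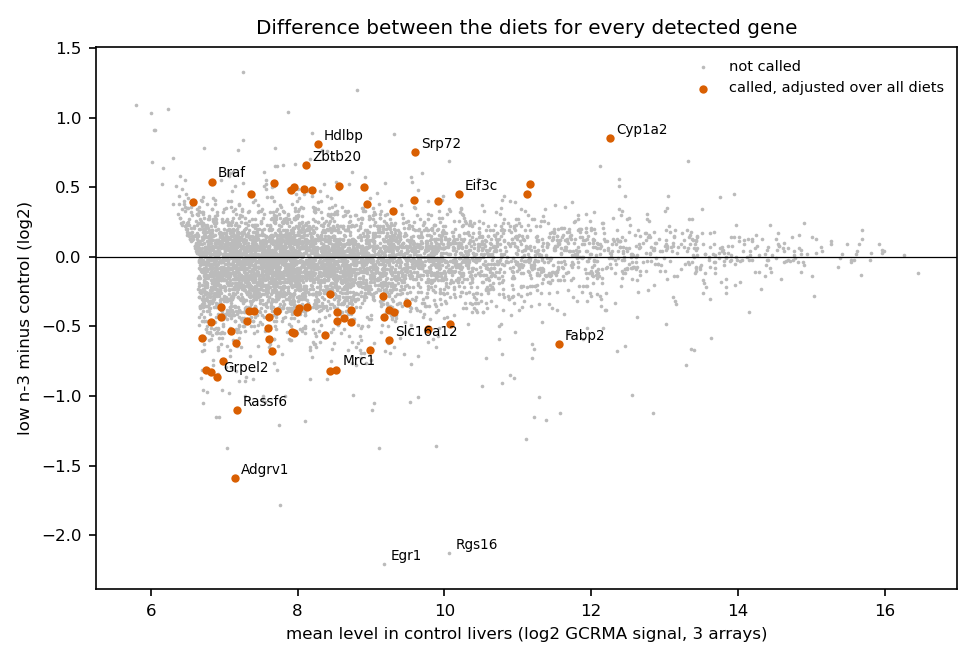
Difference between diets (low n-3 minus control, log2) against the mean control level (log2 GCRMA signal) for the 5933 detected genes, with the 65 called genes in orange and the others in grey. Most genes lie close to 0, the called genes were mostly moderate in size, and the points with the largest differences that were not called, such as Egr1 at -2.21 and Rgs16 at -2.13, had wide spreads between mice.

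Among the 21 genes that were higher, the median reached 141% of the control level and the range ran from 126% to 180%. Cyp1a2, a hepatic cytochrome P450 that oxidises caffeine and aromatic amines, was the largest. Its log2 level was 12.64, 11.98 and 12.15 in the control livers and 12.97, 12.77 and 13.57 with low n-3. All low n-3 livers stood above the controls, with replicate 3 well above the other low n-3 livers, and the mean was 180% of control (95% interval 133 to 244, adjusted p = 0.0116 by limma over all diets). Among all 9 diets the mean of Cyp1a2 was lowest on the control diet, and it reached 13.92 on the high-fat diet and 13.78 on laboratory chow.

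Srp72 encodes a subunit of the signal recognition particle, which brings ribosomes that make secreted proteins to the endoplasmic reticulum. Its level was 9.77, 9.24 and 9.80 in controls and 10.29, 10.40 and 10.38 with low n-3, where the livers were nearly alike and all above the controls. The mean was 169% of control (136 to 209, adjusted p = 0.00215 by limma). Eif3c, a core subunit of translation initiation factor 3, stood at 10.28, 10.01 and 10.29 in controls and at 10.62, 10.64 and 10.67 with low n-3. The low n-3 livers again varied little, and the mean was 137% of control (120 to 155, adjusted p = 0.00183 by limma, the lowest among the members). Hdlbp encodes vigilin, a protein with many KH domains that binds messenger RNA on membrane-bound ribosomes, and measured 8.70, 7.66 and 8.46 in controls against 9.17, 9.26 and 8.83 with low n-3. The groups did not overlap, but control replicate 2 lay far below the other controls, and the interval around 176% was wide (121 to 255, adjusted p = 0.0487 by limma). Eprs, which charges glutamate and proline tRNAs, reached 133%, the mitochondrial ribosomal protein gene Mrps18b 130% and the tRNA dihydrouridine synthase gene Dus1l 126%.

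Zbtb20, a zinc finger repressor that silences alpha-fetoprotein in the adult liver, measured 8.17, 8.00 and 8.19 in controls and 8.61, 8.53 and 9.20 with low n-3. All low n-3 livers were higher, replicate 3 most, and the mean was 158% of control (126 to 199, adjusted p = 0.00934 by limma). Braf, a kinase of the MAP kinase cascade, lay close to the detection level at 6.90, 6.71 and 6.88 in controls and 7.25, 7.33 and 7.53 with low n-3. The groups were clearly apart at 146% of control (122 to 174, adjusted p = 0.00666 by limma). Pdpk1, the kinase that activates AKT downstream of insulin, reached 144%, and its values of 7.71, 7.40 and 7.93 in controls lay below 8.35, 8.03 and 8.24 with low n-3. Pbrm1, a subunit of a SWI/SNF chromatin remodelling complex, reached 143%, the histone variant gene Macroh2a1 142%, the helicase gene Helz 137%, and Ankrd17, which encodes an ankyrin repeat protein, 139%. Dcxr, a reductase of L-xylulose in the uronate cycle, stood at 11.21, 11.17 and 11.10 in controls and 11.70, 11.49 and 11.84 with low n-3. It was separated in every liver at 143% of control (113 to 181), yet its adjusted p of 0.0496 by limma was just inside the threshold. Gmps, which makes GMP in purine synthesis, reached 140%, the F-box gene Fbxo33 141%, and AW209491, of which no role is stated here, 141%.

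**Figure D2:**
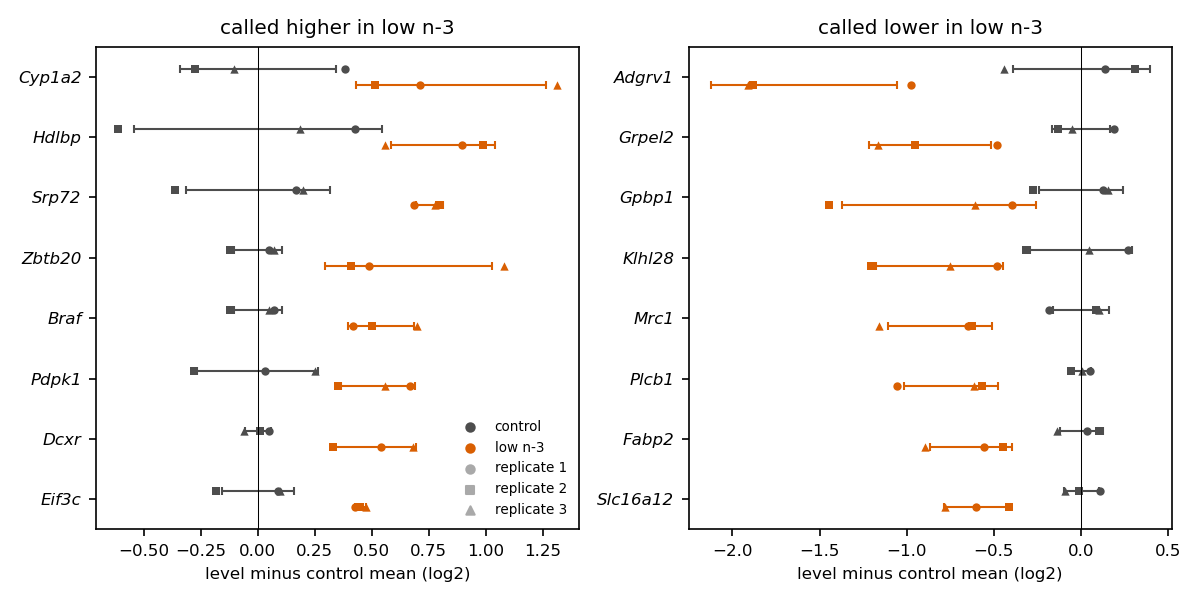
Log2 level minus the control mean in each liver for 8 genes called higher (left) and 8 called lower (right) with low n-3; symbols mark the replicates, and bars span the mean plus and minus 1 SD of 3 livers. These 16 genes were taken from called genes without overlap, so by choice no low n-3 liver overlaps a control liver. Control replicate 2 sits lowest among the controls for every gene on the left except Dcxr.

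The rise in these genes was carried unequally by their probe sets. Each probe set reads a short stretch of a transcript, usually near its 3′ end, and 14 of the 21 genes called higher had more than 1. In 11 of these 14 the probe sets differed from each other by more than 0.5, 11 had all probe sets with the same sign, and only Zbtb20 had more than 1 probe set called on its own. Srp72 showed a difference of 1.25 (SE 0.25) at one probe set and 0.26 (SE 0.10) at the other. At the first the values were 10.03, 9.07 and 10.14 in controls against 10.94, 10.97 and 11.05, and at the second 9.52, 9.42 and 9.46 against 9.65, 9.82 and 9.71. Both separated the groups, but by very unequal amounts. Eif3c gave 1.09 (SE 0.31) at one probe set and between 0.22 and 0.25 at the others, and Hdlbp gave 1.47, 1.22, 0.40 and 0.17. In the probe sets with the large differences control replicate 2 was the lowest array, at 7.72 against 9.12 and 9.19 for Eif3c and at 4.59 against 6.67 and 6.13 for Hdlbp. For Iqgap2, a scaffold protein of the actin cortex, the probe sets had opposite signs, 1.03 (SE 0.21) and -0.13 (SE 0.08).

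Pdpk1 gave 1.15 and -0.10, and Ankrd17 gave 1.09 and -0.13, so the direction of these genes depended on the probe set. When each gene was read from its brightest probe set Ankrd17 turned to -0.13 with an adjusted p of 0.638 by limma, and Iqgap2, whose brighter probe set is also the one at -0.13, lost its call. Gmps gave 0.89 and 0.08, and Prkar2a, a regulatory subunit of protein kinase A, gave 0.70 and 0.11. The 9 probe sets of Zbtb20 all lay above 0, from 0.19 to 0.96, as did both of Braf at 0.75 and 0.34 and those of Pbrm1 from 0.29 to 0.88. A common sign was shared by 11 of the 14 genes called higher with several probe sets, so it does not set these apart. Braf and Pbrm1 lost their calls when read from the brightest probe set. Of the genes called lower 13 had more than 1 probe set. All 13 had a common sign, 2 had probe sets differing by more than 0.5, and 3 had more than 1 probe set called. Snx13, a sorting nexin, gave -0.36 at both of its probe sets and each was called, whereas Gpbp1 gave -1.39 (SE 0.39) and -0.24 (SE 0.09). The cause of the unequal probe sets was not tested. Over single probe sets 154 of 10582 were called (1.46%), 75 higher and 79 lower.

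**Figure D3:**
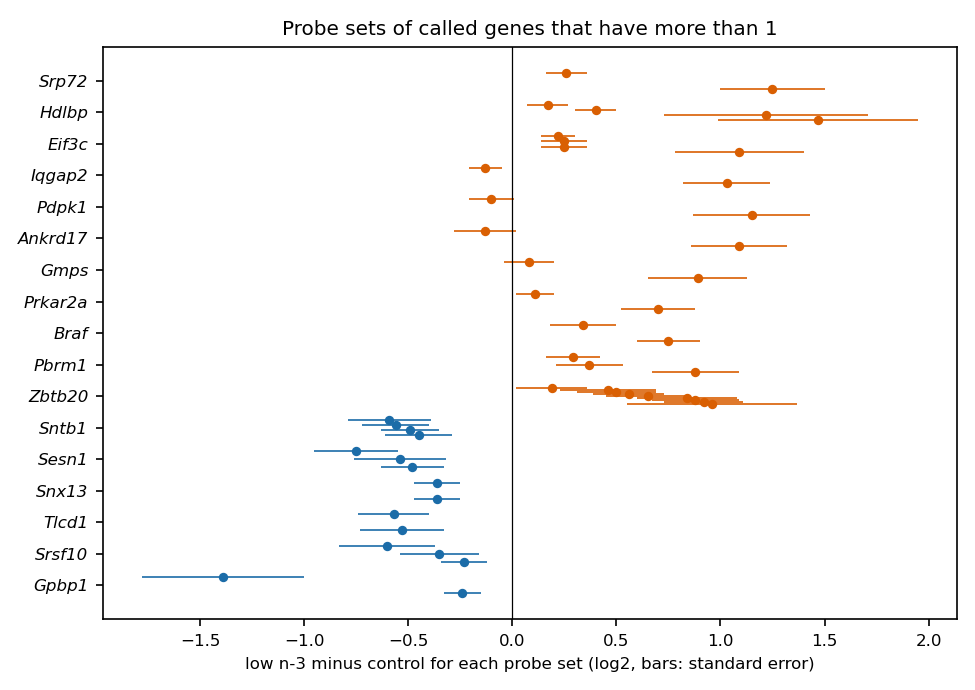
Low n-3 minus control (log2) for each probe set of 17 called genes that have several, with points for probe sets and bars for the standard error; orange genes were called higher and blue genes lower. In Srp72, Eif3c, Iqgap2, Pdpk1, Ankrd17 and Gmps a single probe set lies near 1 while the rest lie near 0, and in Zbtb20, Sntb1, Sesn1 and Snx13 the probe sets lie together on one side.

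The 44 genes that were lower had a median of 71.8% of the control level and ranged, as fitted, from 33.2% to 83.0%. In 12 of them the low n-3 mean was itself below the detection level, and where no low n-3 array reached it the fold is given as a lower bound. Adgrv1, an adhesion G protein-coupled receptor, measured 7.28, 7.45 and 6.70 in controls and 6.17, 5.26 and 5.23 with low n-3. Every low n-3 liver was below the controls and below the detection level, which makes the transcript at least 1.41-fold lower (adjusted p = 0.0031 by limma). Adgrv1 varied widely over the series, from a diet mean of 3.08 under diet restriction to 7.74 on the western diet. Plcb1, a phospholipase C that releases inositol trisphosphate, stood at 7.04, 6.93 and 6.99 in controls and 5.93, 6.42 and 6.37 with low n-3. The controls were nearly identical and all low n-3 livers lay below detection, giving at least 1.27-fold lower (adjusted p = 0.00726 by limma). Grpel2, a co-chaperone of mitochondrial protein import, was at 7.09, 6.77 and 6.85 against 6.42, 5.95 and 5.74 and was at least 1.2-fold lower. Of the same kind were Ktn1, the kinesin anchor of the endoplasmic reticulum (at least 1.12-fold lower), Klhl28, of the kelch-like family (at least 1.08-fold), and Brd1, a bromodomain protein of histone acetyltransferase complexes (at least 1.04-fold). Rassf6, of the RAS association domain family, had 7.84, 6.59 and 7.08 in controls and 5.70, 6.66 and 5.85 with low n-3. Its groups overlapped, since low n-3 replicate 2 exceeded control replicate 2, although it was called with an adjusted p of 0.00523 by limma.

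Fabp2, a fatty acid binding protein best known from the intestine, measured 11.59, 11.66 and 11.42 in controls and 11.11 and 10.66 in low n-3 replicates 2 and 3, with replicate 1 at 11 between them. The groups were well apart, at 64.6% of control (49.5 to 84.3, adjusted p = 0.0332 by limma). Selenoi, which makes phosphatidylethanolamine from CDP-ethanolamine, stood at 8.55, 8.50 and 8.83 against 8.24, 8.04 and 8.29 and was at 73.6% (62.3 to 87.1). Tlcd1, a membrane protein that influences the fatty acid make-up of phospholipids, had 7.91, 7.91 and 8.05 in controls and 7.26, 7.51 and 7.44 with low n-3. Its groups did not overlap and its mean was 68.3% of control (54.2 to 86.0). Pank3, a pantothenate kinase that starts coenzyme A synthesis, had 9.32, 9.32 and 9.31 in controls and 9.01, 8.89 and 8.85 with low n-3, or 75.7% (63.5 to 90.3). The myotubularin gene Mtm1, a phosphatase of phosphoinositides, was at 65.2%. Selenoi, Tlcd1 and Pank3 were singled out after their values had been seen, as were Eprs, Mrps18b, Dus1l, Iqgap2, Prkar2a, Snx13 and Mfsd14a and the uncalled list members named below for an unadjusted p under 0.05.

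Mrc1, the mannose receptor of liver endothelium and macrophages, fell from 8.34, 8.61 and 8.63 in controls to 7.88, 7.90 and 7.37 with low n-3. All low n-3 livers were lower, replicate 3 most, and the mean was 57.0% of control (40.4 to 80.3, adjusted p = 0.0338 by limma). Slc16a12, a transporter of creatine and related solutes, stood at 9.35, 9.23 and 9.15 against 8.64, 8.83 and 8.46. The groups did not overlap and the mean was 66.0% (53.1 to 82.0, adjusted p = 0.0131 by limma). Sesn1, a stress-induced inhibitor of mTORC1, was at 66.4%, and Mrtfb, a coactivator of serum response factor, at 63.0%. The inhibitor of apoptosis gene Birc3 was at 62.3%, the promoter-binding protein gene Gpbp1 at 56.8% and Tmem170b at 68.1%. Smaller falls with narrow intervals were seen in the splicing factor gene Srsf10 at 76.2% (63.8 to 91.0), the organic ion transporter gene Slc22a23 at 76.6% (66.0 to 88.8) and Mfsd14a, of the major facilitator superfamily, at 74.4% (65.0 to 85.2).

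The promoters of the called genes were searched for 4 short motifs. RefSeq promoters of GRCm38.p6, each from 250 bases before to 50 bases after a start, were at hand for 61 of the 65 called genes, 4887 of the 5933 detected genes and 27025 genes in all. The E-box CACGTG, the same on both strands, occurred in 11 of 61 called genes (18.0%), against 12.5% of detected genes and 8.09% of all genes. The core of the sterol response element, TCACNCCAC on either strand, occurred in 3 (4.92%) against 1.39% and 1.44%. TGACCTTTG, found in elements that bind PPAR alpha, and the D-box TTATGCAA occurred in 0 of the 61, against 0.544% and 0.888% of all genes. Each match is a description of letters and no evidence of binding. A gene that rose and a gene that fell, both with an E-box, and a gene that fell with the sterol response element core are shown to let their settings be compared, 5′ to 3′ on the strand of the gene and with the motif in capitals. They are Hdlbp at chr1:93478328-93478627 on the minus strand, Klhl28 at chr12:64965487-64965786 on the minus strand and Sesn1 at chr10:41887189-41887488 on the plus strand.
Hdlbp: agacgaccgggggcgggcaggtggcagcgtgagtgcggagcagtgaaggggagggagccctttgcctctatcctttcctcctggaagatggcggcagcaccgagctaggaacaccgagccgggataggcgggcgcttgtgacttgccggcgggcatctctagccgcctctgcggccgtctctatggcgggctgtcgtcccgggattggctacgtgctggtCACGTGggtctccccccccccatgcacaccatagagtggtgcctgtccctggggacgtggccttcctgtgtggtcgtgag
Klhl28: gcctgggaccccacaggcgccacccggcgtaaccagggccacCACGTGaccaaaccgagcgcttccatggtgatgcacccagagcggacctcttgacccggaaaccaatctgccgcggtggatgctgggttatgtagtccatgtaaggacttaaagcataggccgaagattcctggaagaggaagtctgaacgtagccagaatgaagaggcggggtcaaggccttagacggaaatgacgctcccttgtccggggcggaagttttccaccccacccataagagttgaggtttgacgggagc
Sesn1: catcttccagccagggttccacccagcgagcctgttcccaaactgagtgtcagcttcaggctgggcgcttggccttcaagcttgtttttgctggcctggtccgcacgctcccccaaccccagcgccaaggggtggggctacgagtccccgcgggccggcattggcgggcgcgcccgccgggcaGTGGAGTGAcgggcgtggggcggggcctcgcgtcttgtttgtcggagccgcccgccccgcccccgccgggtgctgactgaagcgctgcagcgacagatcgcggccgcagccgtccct
The E-box of Hdlbp, higher with low n-3, lies nearer its start than that of Klhl28, lower with low n-3, and Sesn1 carries the sterol element core as its reverse complement. Hdlbp and Sesn1 have further starts, and the motif was in 1 of 3 listed promoters of Hdlbp and 1 of 2 of Sesn1.

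The calls depended on single livers. When each of the 6 arrays was left out in turn, between 31 and 94 genes were called, and 9 of the 65 remained called in all 6 fits. These were Eif3c, Srp72 and Braf among the higher genes and Adgrv1, Mfsd14a, Brd1, Rassf6, Grpel2 and Plcb1 among the lower, and all 9 were also called under both other scalings. With the brightest probe set Eif3c, Braf and Grpel2 lost their calls, and Eif3c also did with the median of probe sets. Without the filter on low signal Mfsd14a, Brd1, Braf and Plcb1 lost theirs. Low n-3 replicate 3 had the strongest influence. Without it 31 genes were called and 20 of the 65 remained, and it was the low n-3 array farthest from the control mean in 32 of the 44 lower and 12 of the 21 higher genes. Without control replicate 3, 32 genes were called and 25 remained. Control replicate 2 was the control array farthest from the low n-3 mean in 16 of the 21 higher genes, and 7 of these 21 remained without it. As whole profiles the diets were not separated, since pairs of controls lay up to 50.6 apart (Euclidean distance in log2 units over all kept probe sets), pairs of low n-3 livers up to 45.4, and a control and a low n-3 liver between 36.3 and 55.2. Set among all 9 diets, the low n-3 mean was the lowest in 27 of the 44 lower genes and the highest in 8 of the 21 higher genes. The control mean was the highest in 6 of these 44 and the lowest in 10 of these 21. A call between both diets itself favours an extreme mean in one of them, and the share over all genes was not counted. These ranks are therefore no separate evidence.

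The genes of polyunsaturated fatty acid synthesis gave no call. Of 13 detected genes 5 had a higher mean, 0 were called, 0 had an unadjusted p under 0.05 and the median difference was -0.05, beside -0.029 over all genes. Fads1, the delta-5 desaturase, stood at 11.71, 12.06 and 12.10 in controls and 11.69, 12.21 and 11.87 with low n-3. The groups overlapped fully, at 97.6% of control (74.9 to 127). Fads2, the delta-6 desaturase, had 9.37, 10.23 and 10.10 against 9.70, 10.11 and 9.76, or 96.9% (66.3 to 142), and centring the arrays moved Fads1 to 0.01 and Fads2 to 0.00. Elovl5, which elongates the shorter polyunsaturated fatty acids, had 13.73, 14.37 and 14.37 against 13.74, 14.08 and 13.45 and overlapped at 75.9% (54.1 to 106). Elovl2, which elongates the longest ones, had 13.63, 13.98 and 13.92 against 13.47, 13.69 and 13.61 and overlapped at 83.8% (67.4 to 104). Changes inside these intervals were not detectable with 3 livers per diet.

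The handling of polyunsaturated fatty acids in phospholipids and in oxygenation pathways gave no call either. Lpcat3 puts arachidonate and linoleate into lysophospholipids, and its values were 9.54, 9.64 and 9.83 in controls and 9.26, 9.22 and 9.37 with low n-3. The groups did not overlap and the mean was 76.5% of control (62.9 to 93.0), yet the adjusted p was 0.0774 by limma. Of the 10 detected genes of phospholipid remodelling 6 had a higher mean and the median was 0.04. Pnpla8, a calcium-independent phospholipase, was at 82.7% (70.6 to 96.8). Of 23 detected genes that oxidise arachidonate or its products 14 had a higher mean, with a median of 0.08. Hpgd, which inactivates prostaglandins, was at 70.8% (53.8 to 93.1), Lta4h, which makes leukotriene B4, at 117% (100 to 136), and Ephx2, the soluble epoxide hydrolase, at 105% (89.5 to 124).

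Genes of fatty acid synthesis stood low on average but differed as much between mice as between diets. In de novo lipogenesis 3 of 20 detected genes had a higher mean and the median difference was -0.65, with 0 called and 2 with an unadjusted p under 0.05. Leaving out single arrays moved the median between -0.91 and -0.30. By array the median over the list, relative to the control mean, was -0.55, 0.03 and 0.47 in controls and -0.73, 0.06 and -0.99 with low n-3, so that low n-3 replicate 2 lay amid the controls. Fasn, the fatty acid synthase, shows the pattern, with 11.74, 12.33 and 12.98 in controls and 11.58, 12.82 and 10.62 with low n-3. The lowest and a very high value were both in the low n-3 group, and the mean of 62.5% had an interval from 23.3 to 168. Acaca, the acetyl-CoA carboxylase, was at 62.0% (28.4 to 135) and Scd1, the delta-9 desaturase, at 66.9% (43.8 to 102). Gpam, the first enzyme of glycerolipid synthesis, was at 63.2% (42.9 to 93.0, adjusted p = 0.13 by limma). Srebf1, which encodes SREBP-1 itself, was at 103% (64.6 to 165) and Thrsp, a lipogenic nuclear protein, at 62.9% (27.6 to 143). Rgs16, a regulator of G protein signalling that follows carbohydrate feeding, measured 10.00, 10.87 and 9.33 in controls and 7.60, 9.36 and 6.84 with low n-3, or 22.8% of control (5.76 to 90.4, adjusted p = 0.176 by limma).

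In cholesterol synthesis 2 of 15 detected genes had a higher mean and the median was -0.21, with 0 called. This median ranged from -0.32 to 0.00 as single arrays were left out. Lss, lanosterol synthase, stood at 8.00, 7.75 and 8.74 in controls and 7.11, 7.53 and 7.21 with low n-3. The groups did not overlap, at 54.3% of control (34.1 to 86.4), and the adjusted p was 0.0919 by limma. Hmgcs1, the cytosolic HMG-CoA synthase, was at 78.0% (51.6 to 118), Idi1, the isopentenyl diphosphate isomerase, at 91.6% (65.3 to 128), and Insig1, which holds SREBP in the endoplasmic reticulum, at 71.8% (48.5 to 106). Of 22 detected genes of bile acid synthesis and transport 12 had a higher mean, and the rate-limiting enzyme gene Cyp7a1 varied from 6.54 to 9.21 in controls and from 7.48 to 9.70 with low n-3.

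The lists of lipid uptake and oxidation held 1 call, Fabp2 (0.742% of all genes were called lower). Among 12 detected genes of lipid uptake and binding 2 had a higher mean and the median was -0.20. Fabp1, the main hepatic fatty acid binding protein, had 16.44, 16.44 and 16.48 in controls and 16.35, 16.35 and 16.32 with low n-3, separated but small at 92.3% (82.9 to 103). Fabp5 had 11.82, 12.43 and 13.40 against 10.57, 13.14 and 10.98 and overlapped at 50.4% (22.8 to 111). Among 15 detected PPAR alpha targets 3 had a higher mean, the median was -0.18 and 0 were called. Ppara itself was at 118% (90.8 to 153), and Pdk4, which spares glucose by blocking pyruvate dehydrogenase, at 63.0% (24.7 to 161). In mitochondrial beta-oxidation 9 of 27 detected genes had a higher mean with a median of -0.09, and Cpt1a, the entry step, was at 94.5% (65.5 to 136). Peroxisomal beta-oxidation showed 16 of 30 higher and a median of 0.01.

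Genes of the secretory pathway, of respiration and of amino acid breakdown stood slightly higher than in the control livers. Of 52 detected genes of protein targeting and endoplasmic reticulum chaperones 42 had a higher mean, and the median was 0.17. Srp72 was called, where 0.354% of all genes were called higher. The median kept between 0.12 and 0.19 with any array left out and was 0.21 and 0.18 under the other scalings. By array it was 0.03, -0.12 and 0.06 in controls and 0.05, 0.22 and 0.18 with low n-3. Replicate 1 of low n-3 thus lay among the controls, and control replicate 2 was the lowest. Against the diet deficient in essential fatty acids the median of this list was -0.02, with 1 gene called higher and 1 lower. In that comparison the medians of complex I, complexes II to V and amino acid breakdown were 0.14, 0.05 and 0.07. Among all 9 diets the mean of Srp72 was lowest on the control diet, at 9.6. Next to Srp72, 4 more had an unadjusted p under 0.05 (3.10% of all genes had such a p and were higher). Hyou1, a large chaperone of the endoplasmic reticulum, stood at 7.67, 6.91 and 7.00 in controls and 8.01, 7.86 and 8.00 with low n-3, without overlap at 170% (107 to 269, adjusted p = 0.141 by limma). Srp68, the partner of SRP72 in the particle, was at 8.41, 8.48 and 8.47 against 8.80, 8.73 and 8.75. It was separated in all livers at 124% (105 to 146, adjusted p = 0.104 by limma), and the receptor of the particle, Srpr, was at 123% (105 to 144), with Hsp90b1, another chaperone, at 143% (101 to 202).

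In respiratory complex I, 25 of 33 detected genes had a higher mean with a median of 0.09, and in complexes II to V 32 of 42 with a median of 0.07; none was called in either list. Atp5k, a subunit of the ATP synthase, had 12.58, 12.46 and 12.53 in controls and 12.75, 12.70 and 12.81 with low n-3, or 117% (105 to 131, adjusted p = 0.0634 by limma). These shifts were small beside the change of a single called gene, though the low n-3 arrays had complex I medians of 0.11, 0.07 and 0.14 against 0.03, -0.01 and -0.01 in controls. In amino acid breakdown and the urea cycle 42 of 57 had a higher mean with a median of 0.10 and 0 called, 13 lying wholly above the controls (6.22% of all genes did) and 3 wholly below (10.3%). The low n-3 feed held more protein, and the medians by array were 0.11, 0.12 and 0.12 against 0.01, 0.00 and 0.00 in controls. Protein content and the kind of fat cannot be told apart here. Dbt, of the branched-chain keto acid dehydrogenase, had 10.00, 8.99 and 9.66 against 10.24, 10.08 and 10.06 (149%, 111 to 199). Hgd, of tyrosine breakdown, was at 140% (109 to 179) and Cps1, the first enzyme of the urea cycle, at 108% (94.2 to 123). Asns, which makes asparagine and responds to amino acid lack, was at 5.47, 5.96 and 6.59 against 5.92, 7.82 and 7.36, overlapping and without a call.

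In detoxification, 21 of 33 detected P450 and xenobiotic genes and 22 of 35 genes of glutathione and the NRF2 response had a higher mean, with medians of 0.04 and 0.03. Beyond Cyp1a2 no member of these was called (0.354% of all genes were called higher). Gsta4, a glutathione transferase for 4-hydroxynonenal, a product of n-6 fatty acid peroxidation, had 8.33, 8.47 and 8.38 in controls and 9.16, 9.19 and 9.12 with low n-3. Both groups were tight and far apart, at 170% of control (115 to 249), but the model took its spread from all 27 arrays, with a standard error of 0.27, and the adjusted p was 0.0773 by limma. Gsto1, another glutathione transferase, was at 136% (107 to 172). Gclc, the first enzyme of glutathione synthesis, was at 94.1% (72.8 to 122), and Gpx1, the cytosolic glutathione peroxidase, at 108% (95.8 to 121).

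The remaining lists gave 3 calls, all lower (of all genes 0.742% were called lower and 0.354% higher). In RNA processing and splicing 20 of 51 detected genes had a higher mean, with a median of -0.06 and Srsf10 called. Srsf10 measured 7.32, 7.27 and 7.41 in controls and 6.92, 7.08 and 6.83 with low n-3, with no overlap. Among solute carriers of nutrients 17 of 38 were higher, with a median of -0.08 and Slc16a12 and Slc22a23 called. Slc22a23 had 9.34, 9.11 and 9.28 in controls and 8.97, 8.78 and 8.84 with low n-3, again without overlap. Its control mean of 9.25 was the highest of all 9 diets, the others lying between 8.62 and 8.93. In the interferon response with MHC class I 7 of 30 had a higher mean with a median of -0.13 and 0 called, and in glucose metabolism 10 of 30 with a median of -0.15 and 0 called. Ribosomal proteins (21 of 37 higher, median 0.01), complement and coagulation (22 of 42, 0.01), the proteasome (23 of 36, 0.07) and apolipoproteins (12 of 20, 0.04) had no call. In the circadian clock list 4 of 11 were higher, and Dbp, a clock output gene, spanned 8.40, 7.15 and 4.57 in controls and 8.48, 6.17 and 4.30 with low n-3.

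Markers of sinusoidal endothelium, Kupffer cells and stellate cells stood lower with low n-3, and of these Mrc1 alone was called. In whole liver, fewer cells of a type and less RNA per cell cannot be told apart. Of 13 detected markers of sinusoidal endothelium 2 had a higher mean, the median was -0.38, Mrc1 was called lower (0.742% of all genes were) and 6 lay wholly below the controls (10.3% of all genes did). Lyve1, a hyaluronan receptor, stood at 6.35, 7.43 and 7.14 in controls and 6.17, 5.98 and 5.88 with low n-3, without overlap. Stab1, a scavenger receptor, had 7.37, 7.68 and 7.41 against 7.01, 6.95 and 7.09, and its adjusted p of 0.0514 by limma missed the threshold narrowly. Stab2, its relative, was at 73.3% (57.5 to 93.3) and Fcgr2b, an inhibitory Fc receptor, at 71.6% (53.3 to 96.2). Without any single array the endothelial median stayed between -0.50 and -0.32, and the summed linear signal of all 17 listed markers was 4899 to 5902 in controls and 3915 to 4436 with low n-3, so it did not overlap. Cdh5, Flt1 and Pecam1 were below detection on all 6 arrays. Among all 9 diets the means of Mrc1 (8.53), Stab1 (7.49) and Lyve1 (6.97) were highest on the control diet, but that of Stab2 was not. Against the diet deficient in essential fatty acids the endothelial median was -0.02 with 0 called. Stab1 was at 98.3%, Stab2 at 103% and Mrc1 at 69.5% of that diet. The Kupffer cell and stellate cell medians were -0.31 and -0.25 in that comparison.

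For Kupffer cells and macrophages 0 of 15 detected markers had a higher mean and the median was -0.38, but it ranged from -0.65 to -0.17 with single arrays left out. By array it was -0.24, -0.03 and 0.29 in controls and -0.50, 0.09 and -0.83 with low n-3, and replicate 2 of low n-3 stood among the controls. The summed signal overlapped, at 7640 to 10372 in controls and 4796 to 9603 with low n-3, and Cd14, Cd68, Marco and Timd4 of the 20 markers were below detection. Clec4f, a receptor particular to Kupffer cells among liver cells, was at 8.15, 8.38 and 8.86 against 7.53, 8.33 and 7.57. For stellate cells and fibroblasts 0 of 10 had a higher mean, the median was -0.34 and the sums of 7572 to 9072 and 5295 to 7603 overlapped slightly. Col1a1, Acta2, Des and 4 more of 17 were below detection. Hepatocyte markers, by contrast, had 10 of 15 higher, a median of 0.04, sums of 507739 to 513689 in controls and 511454 to 517003 with low n-3, and none below detection. The 3 detected erythroid markers had higher means with a median of 0.24, but 0 had an unadjusted limma p under 0.05. Alas2 was at 101% of control, Bpgm at 118% and Tfrc at 149%, and 5 of the 8 on the array were below detection. Of the adipocyte and pancreatic acinar markers 1 of 2 and 1 of 1 were higher. The few detected markers of MHC class II cells, B cells and neutrophils (2, 1 and 1) had lower means. All 14 markers of T and NK cells and all 9 of cholangiocytes on the array were below detection. The part of these cells in the calls, Mrc1 included, was not tested.

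**Figure D4:**
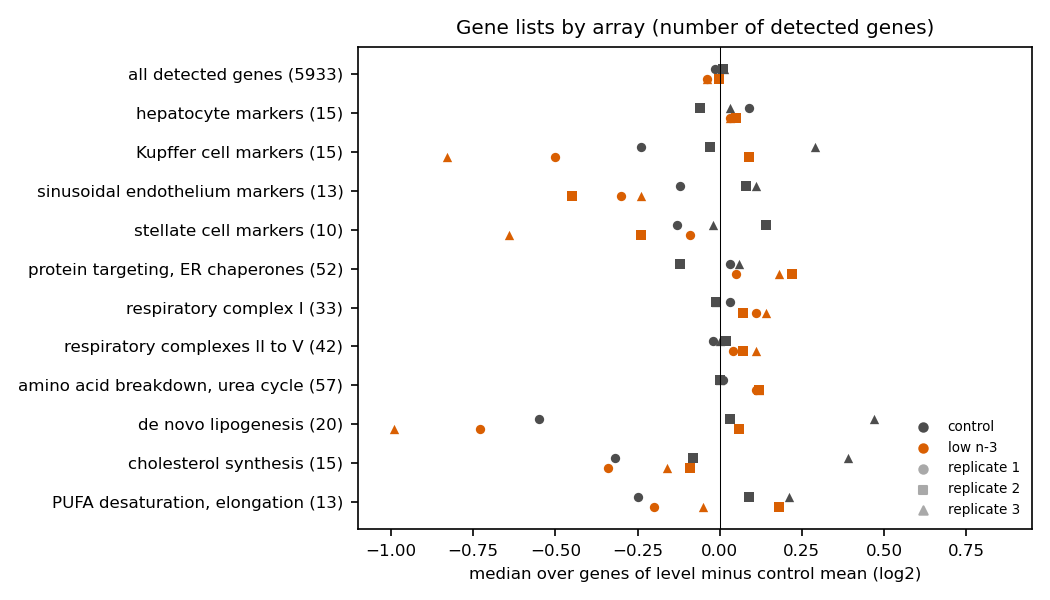
Median over the detected genes of each list of the log2 level minus the control mean, for each of the 3 control (grey) and 3 low n-3 (orange) livers, with the number of genes in brackets. The endothelial medians of the low n-3 livers (-0.30, -0.45 and -0.24) lie below all controls, the amino acid and complex I medians lie above all controls, and the lipogenesis and Kupffer cell medians of both diets spread widely and overlap.

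Against the diet deficient in essential fatty acids (EFA) many more genes were called than against AIN-93, 825 and 0 with the adjustment over each contrast alone. That feed supplies saturated fat and neither n-6 nor n-3 fatty acids, and per the diet table of the study its carbohydrate was mostly sucrose, so sugar, the amount of fat and n-6 content cannot be told apart here. Of 6478 genes the 825 called by limma were 12.7%, 288 higher (4.45%) and 537 lower (8.29%) with low n-3. The split again moved with scaling, to 425 higher of 866 with centred arrays and 418 of 868 after quantile normalisation. The count also rested on single livers, at 319 without low n-3 replicate 3 and 347 without EFA-deficient replicate 2. The low n-3 arrays serve in both contrasts, so the values are given side by side and their likeness is not counted.

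Genes of polyunsaturated fatty acid synthesis, which gave no call against AIN-93, were called lower with low n-3 than with the EFA-deficient diet in 5 of 13 cases, against 8.29% of all genes. Fads1 stood at 12.60, 12.01 and 12.93 in EFA-deficient livers, and low n-3 livers reached 66.4% of that level (50.9 to 86.6, adjusted p = 0.0388 by limma). One EFA-deficient liver overlapped the low n-3 group. Elovl2 was at 14.26, 14.31 and 14.83 with the EFA-deficient diet, wholly above low n-3, which had 54.4% of its level (43.8 to 67.6, adjusted p = 0.0013 by limma). Elovl5 was at 14.71, 14.60 and 14.52, again without overlap, and low n-3 had 55.4% (adjusted p = 0.0229 by limma). Fads2 was at 10.86, 9.83 and 11.22 and did not pass, with low n-3 at 58.3% (adjusted p = 0.0554 by limma). Acsl3 and Acsl5, which activate long-chain fatty acids to their CoA esters, were at 23.4% (14.2 to 38.4) and 57.6% (41.6 to 79.8). The low n-3 mean of Acsl3, 6.27, is below detection.

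Lipogenic and sterol genes differed in the same contrast. In de novo lipogenesis 9 of 20 were called lower and 0 higher, and in cholesterol synthesis 6 of 15 were lower and 0 higher, against 8.29% and 4.45% of all genes. Gpam, at 14.47, 14.86 and 13.95 with the EFA-deficient diet, was wholly above low n-3, which had 30.3% of its level (20.6 to 44.6, adjusted p = 0.000801 by limma). Scd1 was at 45.8% (adjusted p = 0.0177 by limma) and Acaca at 28.8%, the latter with an EFA-deficient range of 8.66 to 11.78 that overlapped low n-3. Lss was at 26.5% (16.6 to 42.2), Hmgcs1 at 36.7% and Insig1 at 49.6%, all called. Lpcat3 had 9.85, 10.40 and 10.01 with the EFA-deficient diet and low n-3 reached 57.3% (adjusted p = 0.00123 by limma).

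Apoa4, an apolipoprotein of triglyceride-rich particles, was at 14.58, 14.22 and 14.70 in EFA-deficient livers, and low n-3 livers had 10.8% of that level (6.32 to 18.6, adjusted p = 8.06e-05 by limma), while they stood at 66.4% of AIN-93 without a call. Pdk4 was at 9.92, 10.06 and 8.55, and low n-3 had 10.5% (adjusted p = 0.00333 by limma), though the low n-3 mean of 6.25 is below detection. Fabp2, called in both contrasts, had 12.31, 11.93 and 12.33 with the EFA-deficient diet, of which low n-3 had 41.5% (adjusted p = 0.000538 by limma). Fabp5 was at 19.3% and Fabp4 at 45.8%. In the other direction Gsta4 was at 7.52, 7.68 and 8.97 with the EFA-deficient diet and low n-3 had 215% of its level (adjusted p = 0.0116 by limma). Dcxr was at 174% (adjusted p = 0.00384 by limma) and Braf at 149% (adjusted p = 0.00659 by limma), both also called against AIN-93. By list, 6 of 42 complement and coagulation genes and 5 of 27 acute-phase genes and metallothioneins were called higher and 0 lower, and in RNA processing 13 of 51 were lower and 2 higher, against 4.45% of all genes higher and 8.29% lower.

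**Figure D5:**
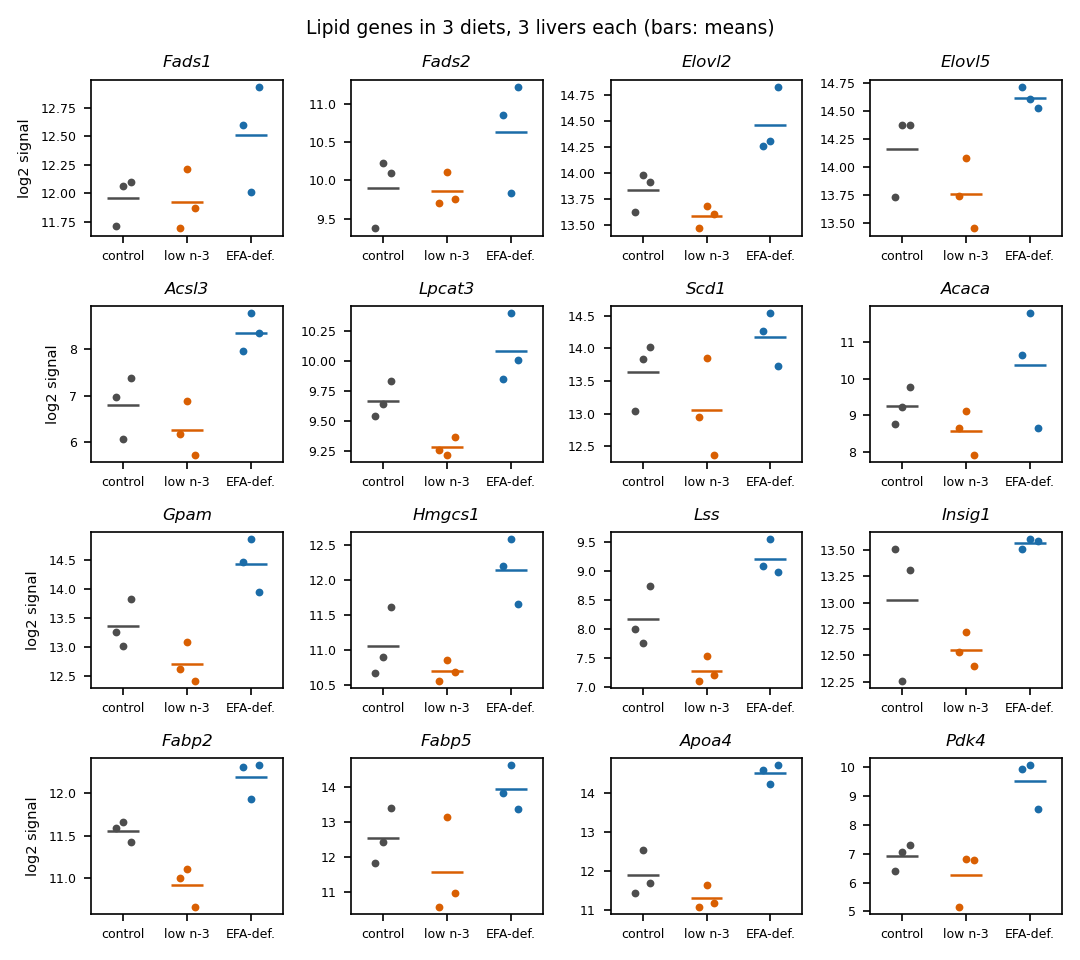
Log2 signal of 16 lipid genes in 3 livers each (points) with the diet mean (horizontal bar) for control, low n-3 and EFA-deficient diets; the vertical scales differ by gene and do not start at 0. For Elovl2, Lss, Gpam, Fabp2 and Apoa4 every EFA-deficient liver lies above every low n-3 liver, while control and low n-3 livers overlap in Fads1, Fads2, Elovl2 and Elovl5.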

How the data were processed

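Total RNA from 27 livers was hybridised to Affymetrix Mouse 430 2.0 arrays, and per the labels the deposited values are log2 signals that the authors background-corrected and normalised with GCRMA; no counts exist, so the number of arrays limits the precision. A probe set was kept if any diet's mean exceeded a linear signal of 100 (10582 of 45101). A gene was the mean of its kept probe sets naming 1 symbol in the platform annotation. Just inside this limit was Stx16 and just outside Trrap, both 6.64.

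All 27 arrays were fitted with limma 3.58.1 in R 4.3.3 (lmFit, eBayes), and low n-3 minus control was adjusted by Benjamini-Hochberg over all genes and 8 diet contrasts, and within the contrast. Intervals are 95%. Named were the 15 largest changes in each direction among called genes without overlap between diets, so their separation was part of the choice. Called members of gene lists, key lipid genes, and genes stated as chosen later were also named. Members and lists were chosen with earlier results of these data known. The labels give no litter or batch, so p-values rest on the spread between these mice within diets, over all 27 arrays. Alternatives were other scaling, filters, probe summaries, arrays, weights and models. In simulated data for low n-3 against control (6478 genes), 90.9% and 93.9% of changes of -1 and 1 log2, 55.9% and 64.7% of changes of -0.585 and 0.585, and 0.653% of unchanged genes were called. With the adjustment within the contrast 87.9% and 84.8% of the changes of -1 and 1 were called. Noise was drawn as normal and independent for each gene, and the changed genes of every diet were picked at random. Correlation between genes and the real effects of the other diets were thus left out. Sequences are RefSeq's, GRCm38.p6.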

Additional observations from a re-analysis of the deposited data

How the results depend on the processing

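The count of 65 genes called against AIN-93 fell to 0 with p adjusted within the contrast (595 at an unadjusted limma p under 0.05), to 0 in a fit of both diets alone (614) and to 0 with Dunnett's test (128), and was 271 with array weights, which gave control replicate 3 a weight of 2.83 against 0.63 to 1.18 for the other 5 arrays. It ranged from 31 to 94 with single arrays left out. The count of 154 probe sets was 0 within the contrast (1132), 0 for both diets alone (999), 448 with array weights, and 70 to 188 with arrays left out. The count of 825 genes against the EFA-deficient diet was 487 with no filter, 170 for both diets alone, and 319 to 824 with arrays left out. The causes were not tested. The replicate numbers share only a number: the deviations of same-numbered control and low n-3 livers correlated at 0.118, 0.179 and -0.039, and a replicate block gave 71 genes, 165 probe sets and 834 genes. Among uncalled genes the sign turned for Fads1 (0.01) and Fads2 (0.00) with centred arrays, Fads2 with the median of probe sets (0.08), Gclc with the brightest probe set (0.25), and Cpt1a (0.04), Dbp (0.88) and Arntl (-0.30) with array weights. The called genes Ankrd17 and Iqgap2 each read -0.13 from their brightest probe set. With single arrays left out, the uncalled differences that turned ranged from -0.14 to 0.36 for Srebf1, -0.26 to 0.05 for Gclc, -1.47 to 0.62 for Dbp, -0.17 to 0.44 for Arntl, -0.02 to 0.16 for Ephx2, -0.18 to 0.08 for Fads1, -0.31 to 0.12 for Fads2, -0.19 to 0.10 for Cpt1a, -0.83 to 0.41 for Elovl6, -0.53 to 0.12 for Sqle, -0.40 to 0.07 for Idi1, -0.43 to 0.91 for Cyp7a1 and -0.50 to 0.01 for Cyp8b1.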

Other observations

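Genes that respond within minutes to stimuli were among the largest differences and among the least certain. In all 31 genes differed by more than 1 log2 unit, 25 lower and 6 higher with low n-3. Of these 2 were called, Adgrv1 and Rassf6 (1.10% of all detected genes were). An unadjusted limma p under 0.05 was found for 16 (10.0% of all detected genes), and 6 did not overlap between diets (16.5% of all did not). The 31 were picked by the size of their difference, so these counts are no separate evidence. Their standard errors ran from 0.24 to 1.53. Egr1, an immediate early transcription factor, measured 10.75, 6.80 and 9.98 in controls and 6.25, 6.47 and 8.17 with low n-3. Control replicate 2 lay among the low n-3 livers and the other controls above all of them. Jun, a subunit of AP-1, had 8.42, 7.16 and 8.70 against 7.02, 6.64 and 7.08, and Dusp1, a phosphatase that ends MAP kinase signals, had 10.53, 11.16 and 11.98 against 10.80, 10.08 and 9.34. Jun did not overlap, Dusp1 did, and neither was called. Moxd1, of the monooxygenase family of dopamine beta-hydroxylase, spread from 7.04 to 9.83 in controls and from 7.45 to 12.54 with low n-3. Enho, which encodes the secreted peptide adropin, had 7.83, 6.70 and 7.25 against 7.45, 8.91 and 9.40 and was not called. These genes were chosen after their values were seen.

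Of the 669 kept probe sets with no gene symbol in the annotation, 13 were called by limma, 11 higher and 2 lower with low n-3. Of 390 with several symbols 0 were called. Over all 10582 kept probe sets 154 were called (1.46%), 75 higher and 79 lower.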
